A study of Mus musculus with 4 samples.

Results

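The genes described here are 42 genes of fatty acid oxidation and the peroxisome, taken by gene symbol from a list and all 42 found among the 32285 genes of each count table. They were measured by Visium spatial gene expression, in which RNA of a tissue section is captured on barcoded spots that each cover a small region of several cells, on fresh frozen kidney sections of 10 µm. The 2 Uox_KO sections came from male C57BL/6J mice in which a company had deleted exons 2 to 4 of Uox, the gene of urate oxidase, and which were bought as a model of hyperuricaemia. The 2 Control sections came from male mice sold as wild type, labelled with the same C57BL/6J background, and age, treatment and litter are not given in the labels. Each section was 1 replicate, and p-values measure only the spread between these sections.

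Fatty acids are activated to acyl-CoA esters, carried into mitochondria by the carnitine shuttle and shortened there by β-oxidation, whose electrons enter the respiratory chain through the electron transfer flavoprotein. Peroxisomes run a parallel β-oxidation for very long-chain, branched-chain and dicarboxylic acids, which produces hydrogen peroxide that catalase removes. The nuclear receptor PPAR-alpha, encoded by Ppara, induces many genes of both routes together with the omega-hydroxylase gene Cyp4a14, and the proximal tubule of the kidney relies on fatty acid oxidation for its ATP.

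The Control sections held 93524222 and 107962997 UMIs, molecules counted once each. The Uox_KO sections held 53897511 and 57230517, and a section had 2528 to 3362 spots. Uox itself had 0 UMIs in all 4 sections, which allows at most 0.0321 and 0.0278 CPM in Control and 0.0557 and 0.0524 CPM in Uox_KO (3 counts per section), so its level could not check the genotype labels. The proximal tubule marked the tissue as kidney in every section, and the summed level of its 12 S1 and S2 markers was 11239.5 and 10740.3 CPM in Control against 4429 and 5096 CPM in Uox_KO, with all 12 lower in Uox_KO. Marker sums of injured tubule (500.5 and 564 CPM in Control against 7954 and 7476 CPM in Uox_KO) and of adipocytes (3.14 and 13.9 CPM in Control against 836 and 1699 CPM in Uox_KO) were higher in both Uox_KO sections, with 7 of 7 and 6 of 6 markers called higher. Whole-section sums of the other marker lists were 2017 and 1803 CPM in Control against 1223 and 1003 CPM in Uox_KO for the S3 segment, 3154 and 3608 CPM in Control against 1533 and 1296 CPM in Uox_KO for the thick ascending limb and 1393 and 1729.6 CPM in Control against 453 and 919 CPM in Uox_KO for the distal tubule and collecting duct. They were 123 and 140.2 CPM in Control against 95.03 and 118 CPM in Uox_KO for podocytes, 0.576 and 0.738 CPM in Control against 79.95 and 48.9 CPM in Uox_KO for urothelium and 0.0471 and 0.263 CPM in Control against 4.39 and 6.10 CPM in Uox_KO for skeletal muscle. For macrophages they were 81.9 and 75.3 CPM in Control against 1063 and 854 CPM in Uox_KO, for fibroblasts 92.3 and 77.3 CPM in Control against 1164 and 912 CPM in Uox_KO and for brown adipocytes 42.7 and 63.97 CPM in Control against 535 and 847 CPM in Uox_KO. In sums of this kind, fewer cells of a type and less RNA per cell cannot be told apart, and the part of these markers in the results was not tested unless a value is given. Pairs of sections shared 1861 to 2539 spot barcodes, which on this platform are fixed positions of the slide.

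Values are UMI counts summed over spots and given as CPM, counts scaled to a common total with TMM factors, a scaling that sets the bulk of genes level between sections. In every pair of values, replicate 1 comes first. The error after ± is the standard error of the log2 fold change, with n = 2 sections per genotype, and adjusted p is that of edgeR's quasi-likelihood test, adjusted by Benjamini and Hochberg's method over all genes tested. A gene is said to have risen or fallen where the adjusted p was under 0.05. Levels of different genes were not compared with each other.

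A second comparison used the 15% of spots of each section that were richest in Cyp4a14 per UMI from genes outside the mitochondrial genome. There were 379 and 504 such spots in the Control sections against 397 and 388 in the Uox_KO sections, called Cyp4a14-rich spots here. They held 15700186, 17068819, 11614992 and 11460789 UMIs. The same rank meant very different Cyp4a14 content. The lowest spot inside the rich class had 0.524 and 0.484 Cyp4a14 UMIs per 10000 in Control and 22.9 and 22.5 in Uox_KO, and the highest spot outside it had 0.523, 0.484, 22.8 and 22.4. The median rich spot held 3 and 2 Cyp4a14 UMIs in Control and 69 and 66 in Uox_KO, and 18 and 112 of the Control rich spots had been placed there by 1 UMI. In these spots the S1 and S2 marker sum was 8883 and 8706 CPM in Control against 8294 and 9140.0 CPM in Uox_KO. The groups of that sum overlapped, but of its 12 markers 7 were called lower and 3 higher (median log2 fold change -0.26). S3 markers summed to 2603 and 2265 CPM in Control against 1849 and 1778 CPM in Uox_KO, thick ascending limb markers to 4401 and 4544 CPM in Control against 1036 and 999 CPM in Uox_KO and distal tubule and collecting duct markers to 713 and 1003 CPM in Control against 164 and 349 CPM in Uox_KO. Injured tubule markers summed to 293 and 363 CPM in Control against 3253 and 3114 CPM in Uox_KO and adipocyte markers to 0.432 and 16.1 CPM in Control against 66.3 and 153 CPM in Uox_KO there. The 13 mitochondrially encoded genes took 12.03% and 13.2% of UMIs in the Control rich spots and 18.5% and 21.3% in the Uox_KO rich spots. Malat1, a nuclear RNA whose share can reflect RNA quality, had 105 and 82.4 CPM against 236 and 197 CPM there, and 139 and 103 CPM against 276 and 255 CPM over whole sections. Its part in the results was not tested.

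Over whole sections, 18 of the 42 genes rose and 19 fell in Uox_KO, beside a background in which 67.1% of the 16369 genes tested were called (34.6% higher and 32.5% lower), and 5 were not called. The split between rises and falls was near that of all genes, with 48.6% of called members higher, beside 51.6% of all called genes. The median log2 fold change was -0.04 over the 42 genes, beside 0.0025 over all genes. Values of the Control and Uox_KO sections did not overlap for 38 of the 42. The share over all genes was not counted, so this number shows nothing particular to the set. In the Cyp4a14-rich spots 25 genes rose and 7 fell, beside 44.7% of 13116 genes called (23.1% higher and 21.6% lower), with a median of 0.45 against -0.0088 over all genes. Groups did not overlap there for 36 of the 42, again without a share over all genes. Rises over 2-fold in the rich spots were found for 10 genes (Acaa2, Decr1, Slc25a20, Acaa1b, Acot1, Acot2, Acot3, Acnat2, Pdk4 and Vnn1) and a fall over 2-fold for Amacr alone of the 42. Over whole sections the rises over 2-fold were Acot1, Pdk4 and Vnn1, and the falls Acox3 and Amacr.

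The balance of rises and falls moved with the scaling. With section totals only, in place of TMM, the median of all genes shifted to 0.27 in whole sections and -0.11 in the rich spots, and the members called were 20 higher and 11 lower in whole sections (64.5% of calls higher, against 48.6%) and 22 higher and 11 lower in the rich spots (66.7%, against 78.1%). All genes split into 8154 higher and 2924 lower in whole sections under that scaling, against 5663 and 5320. The whole-section falls of Acads, Acox2, Ehhadh, Hsd17b4, Acaa1a, Eci2, Acot4 and Acnat2 were then not called (log2 -0.21 to 0.021), and Acadvl and Decr2 were called higher (0.28 and 0.30). Directions given here are relative to the bulk of genes. Leaving out Control replicate 1 or Control replicate 2 lowered the count of whole-section rises from 18 to 10 or 11. In such fits 1 section stands for its genotype and is assumed to vary like the other group, and some calls were lost with the fold nearly unchanged.

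**Figure D1:**
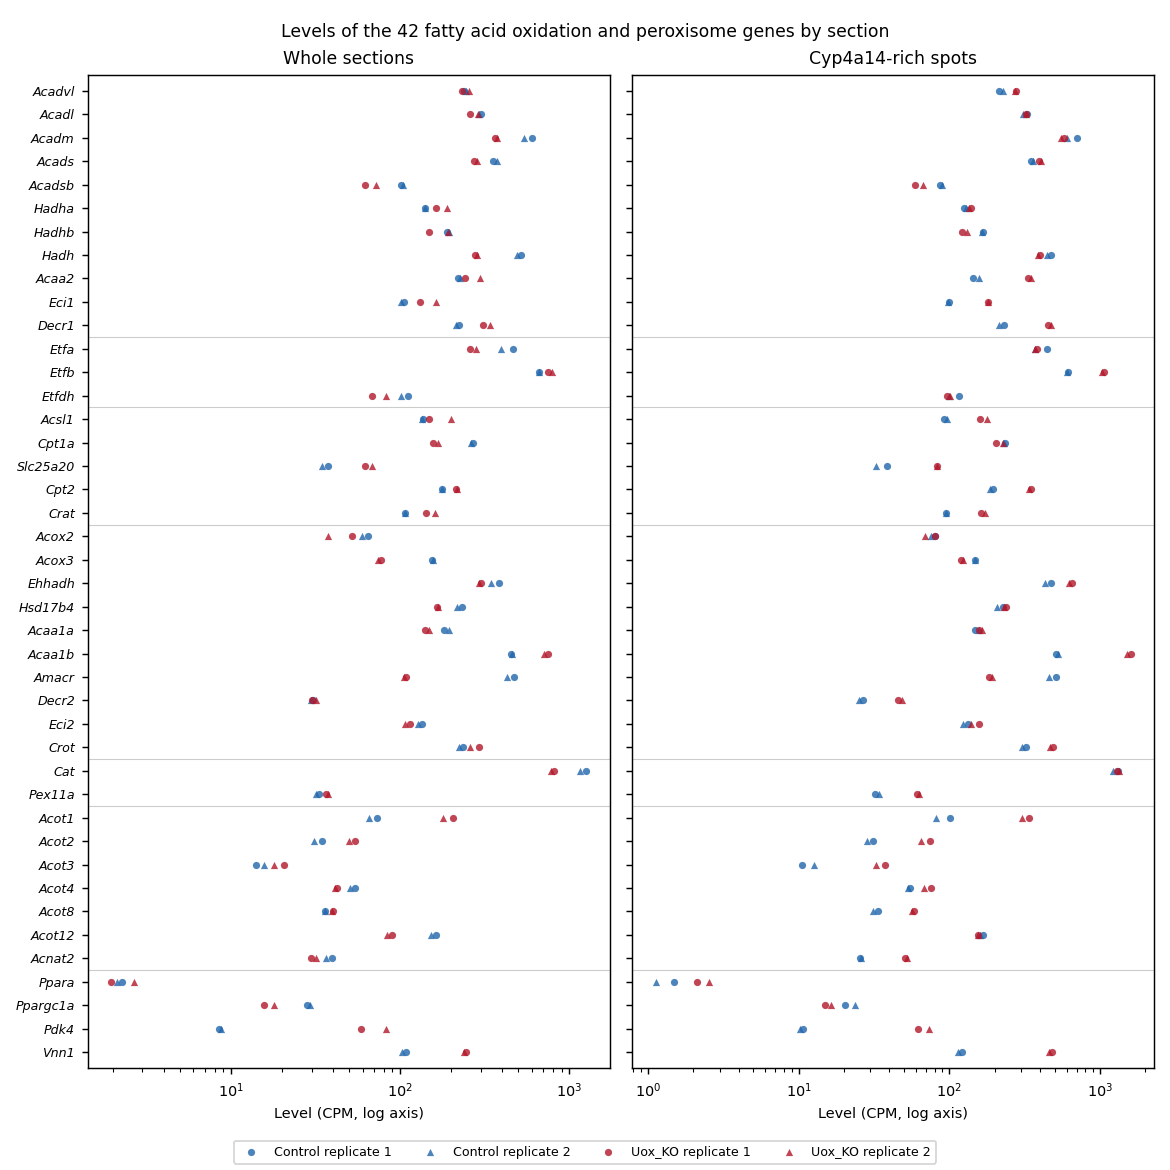
Level of each of the 42 genes in CPM on a log axis, in whole sections (left) and in the Cyp4a14-rich spots (right), with 1 point per section, Control in blue and Uox_KO in red. Pdk4 and Vnn1 lay higher in both Uox_KO sections in both panels, Amacr lay lower in both, and Cat and Ehhadh differ between the panels. Horizontal lines separate the roles.

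Of the 11 enzymes of the mitochondrial β-oxidation spiral 4 rose, 4 fell and 3 were not called over whole sections. These shares lay near the 34.6% of all genes called higher and the 32.5% called lower. Acadm, Acads and Acadsb, the acyl-CoA dehydrogenases for medium, short and branched chains, fell, as did Hadh, while Eci1 and Decr1, which handle unsaturated acids, rose together with Hadha and Acaa2. Acadm, the medium-chain acyl-CoA dehydrogenase, stood at 599 and 537 CPM in Control against 365 and 374 CPM in Uox_KO. Both Uox_KO sections lay below both Control sections, a 1.54-fold fall (log2 change -0.62 ± 0.079, adjusted p = 0.00052). In the rich spots Acadm had 707 and 608 against 573 and 547 CPM, still without overlap (log2 change -0.23 ± 0.080, adjusted p = 0.0296), a call that was lost without Control replicate 1 (log2 -0.12) or Uox_KO replicate 2 (log2 -0.20). Acads, the short-chain enzyme, had 355 and 375 CPM in Control against 271 and 283 CPM in Uox_KO, again with no overlap (log2 change -0.40 ± 0.068, adjusted p = 0.00202). Within the rich spots its order turned, with 346 and 360.1 against 391 and 405 CPM (log2 change 0.17 ± 0.067, adjusted p = 0.0497), but that call sat at the threshold and was lost in 13 of the alternative settings, each section left out among them (log2 0.14 to 0.21). Acadsb, which acts on short branched chains such as those from isoleucine, read 102 and 104 CPM in Control against 61.8 and 72.1 CPM in Uox_KO and fell (log2 change -0.62 ± 0.082, adjusted p = 0.000606). Its rich-spot values were 86.9 and 89.5 against 59.1 and 66.4 CPM (log2 change -0.49 ± 0.076, adjusted p = 0.000135), and in both comparisons the Uox_KO sections were the lower ones.

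Acadvl and Acadl, the very long-chain and long-chain acyl-CoA dehydrogenases, were not called over whole sections. Acadvl had 237 and 244 CPM in Control against 233 and 255 CPM in Uox_KO, with overlapping groups (log2 change 0.019 ± 0.071, adjusted p = 0.829). In the Cyp4a14-rich spots it rose, with 215 and 226 against 279 and 272 CPM and no overlap (log2 change 0.32 ± 0.066, adjusted p = 0.00138). Acadl had 299 and 292 CPM in Control against 259 and 290.0 CPM in Uox_KO (log2 change -0.11 ± 0.077, adjusted p = 0.257), and 326 and 309 against 323 and 322 CPM in the rich spots, where the groups overlapped (log2 change 0.022 ± 0.066, adjusted p = 0.812). Hadh, the short-chain 3-hydroxyacyl-CoA dehydrogenase, was the largest fall of the mitochondrial spiral over whole sections. It had 519 and 489.9 CPM in Control against 278 and 285 CPM in Uox_KO, a 1.79-fold fall with no overlap (log2 change -0.84 ± 0.069, adjusted p = 6.78e-05). Among the rich spots Hadh had 475 and 444 against 397 and 389.9 CPM, also without overlap (log2 change -0.22 ± 0.068, adjusted p = 0.0158). That call was lost without Control replicate 1 (log2 -0.18) or Uox_KO replicate 2 (log2 -0.21).

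Hadha and Hadhb encode the α and β subunits of the mitochondrial trifunctional protein, which carries out the last steps of long-chain β-oxidation as 1 complex. Hadha had 139.8 and 141 CPM in Control against 162 and 189 CPM in Uox_KO over whole sections. Both Uox_KO sections were higher (log2 change 0.32 ± 0.083, adjusted p = 0.0117). The call was lost without either Control section (log2 0.31 and 0.32). Hadhb had 189.6 and 195 CPM in Control against 148 and 192 CPM in Uox_KO, with overlapping groups and the Uox_KO sections apart from each other (log2 change -0.18 ± 0.12, adjusted p = 0.224), and it was called lower without Uox_KO replicate 2 (log2 -0.37). Across the rich spots Hadha had 125 and 129.5 against 139 and 134 CPM, separate but not called (log2 change 0.10 ± 0.066, adjusted p = 0.222), and Hadhb fell, with 166 and 165 against 121 and 130.3 CPM (log2 change -0.40 ± 0.068, adjusted p = 0.000326). Both genes hold large shares of their Uox_KO counts in fat spots, given below, and without those spots Hadha stood at log2 -0.090 and Hadhb at -0.79 over whole sections.

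Hadha and Hadhb lie head to head on chromosome 5, with starts 273 bp apart in RefSeq's GRCm38.p6 annotation, on opposite strands. The 250 bases before the Hadhb start are shown since they lie upstream of both genes, whose calls differed. Capitals mark the 228 bases that also lie in the Hadha window, which runs from 250 bases before to 50 after its start. The line is read 5′ to 3′ on the plus strand, from chr5:30155003-30155252.
Hadhb: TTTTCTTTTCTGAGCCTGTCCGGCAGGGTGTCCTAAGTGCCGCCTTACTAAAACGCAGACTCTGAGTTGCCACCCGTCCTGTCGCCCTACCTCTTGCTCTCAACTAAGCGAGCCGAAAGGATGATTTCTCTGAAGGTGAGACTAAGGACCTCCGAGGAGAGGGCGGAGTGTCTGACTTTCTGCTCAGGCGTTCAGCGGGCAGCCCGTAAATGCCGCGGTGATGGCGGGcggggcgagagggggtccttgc

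The remaining enzymes of the spiral rose. Acaa2, the 3-ketoacyl-CoA thiolase that releases acetyl-CoA, had 219 and 225 CPM in Control against 240.4 and 298 CPM in Uox_KO over whole sections. The Uox_KO sections were both higher but spread widely (log2 change 0.28 ± 0.11, adjusted p = 0.0496). This call was lost without Control replicate 1, Control replicate 2 or Uox_KO replicate 2 (log2 0.26, 0.29 and 0.12). In the rich spots the separation was wide, 143 and 157 against 332 and 347 CPM, a 2.27-fold rise (log2 change 1.18 ± 0.071, adjusted p = 1.52e-08). Eci1, an enoyl-CoA isomerase for unsaturated chains, had 105 and 102 CPM in Control against 131 and 163 CPM in Uox_KO (log2 change 0.50 ± 0.10, adjusted p = 0.00438) and 99.7 and 98.4 against 180.3 and 181 CPM in the rich spots (log2 change 0.87 ± 0.065, adjusted p = 1.53e-07). Neither comparison of Eci1 had overlapping groups. Decr1, the dienoyl-CoA reductase that works with Eci1 on polyunsaturated chains, had 224 and 214 CPM in Control against 307 and 339 CPM in Uox_KO (log2 change 0.56 ± 0.075, adjusted p = 0.000623). Within the rich spots Decr1 had 230.3 and 213 against 451 and 474 CPM, a 2.08-fold rise without overlap (log2 change 1.06 ± 0.070, adjusted p = 4.04e-08).

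The 3 genes that pass electrons from the acyl-CoA dehydrogenases to the respiratory chain did not move together. Etfb, the β subunit of the electron transfer flavoprotein, had 659 and 658 CPM in Control against 747 and 787 CPM in Uox_KO over whole sections (log2 change 0.22 ± 0.072, adjusted p = 0.0308). The Uox_KO sections were higher. It was not called without either Control section or without Uox_KO replicate 2 (log2 0.19 to 0.22). Without the fat spots described below, Etfb was also not called (log2 0.12). In the Cyp4a14-rich spots Etfb had 609 and 600.4 against 1063 and 1027 CPM, a 1.73-fold rise (log2 change 0.79 ± 0.069, adjusted p = 6.85e-07). Etfa, the α subunit, went the other way over whole sections, with 462 and 394 CPM in Control against 259.9 and 280.5 CPM in Uox_KO and no overlap (log2 change -0.66 ± 0.095, adjusted p = 0.00086). Its rich-spot values, 442 and 371 against 381 and 367 CPM, overlapped (log2 change -0.12 ± 0.082, adjusted p = 0.256), and without Control replicate 2 they were called lower (log2 -0.24). Etfdh, the oxidoreductase that hands the electrons to ubiquinone, also fell over whole sections, with 111 and 101 CPM in Control against 68.4 and 82.5 CPM in Uox_KO (log2 change -0.49 ± 0.099, adjusted p = 0.00409). It had 115 and 99.2 against 96.6 and 101 CPM in the rich spots, with overlap (log2 change -0.12 ± 0.079, adjusted p = 0.257), and was called lower there without Control replicate 2 (log2 -0.23).

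Of the 5 genes of activation and the carnitine shuttle, 4 rose over whole sections and in the rich spots, and the entry enzyme fell over whole sections. All genes called higher were 34.6% over whole sections and 23.1% in the rich spots. Cpt1a, the carnitine palmitoyltransferase of the outer membrane that sets the rate of entry, had 271 and 262 CPM in Control against 156 and 167 CPM in Uox_KO over whole sections. Both Uox_KO sections were lower, a 1.65-fold fall (log2 change -0.72 ± 0.067, adjusted p = 0.000117). Among the rich spots Cpt1a had 235 and 229 against 205 and 227 CPM, close but not overlapping, and was not called (log2 change -0.10 ± 0.070, adjusted p = 0.244). Slc25a20, the carnitine-acylcarnitine translocase of the inner membrane, had 37.3 and 34.3 CPM in Control against 61.95 and 68.5 CPM in Uox_KO, a 1.82-fold rise (log2 change 0.87 ± 0.073, adjusted p = 7.78e-05). Its rich-spot values were 38.6 and 32.5 against 82.8 and 82.6 CPM, a 2.33-fold rise (log2 change 1.22 ± 0.085, adjusted p = 7.44e-08). Cpt2, which reforms the acyl-CoA inside the mitochondrion, had 176 and 177 CPM in Control against 214 and 216 CPM in Uox_KO (log2 change 0.28 ± 0.059, adjusted p = 0.00469) and 195 and 185 against 348 and 336 CPM in the rich spots (log2 change 0.85 ± 0.067, adjusted p = 2.46e-07). For Slc25a20 and Cpt2 the Uox_KO sections were the higher ones in both comparisons, with no overlap.

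Crat, the acetyltransferase that exports acetyl groups as acetylcarnitine, had 107 and 106 CPM in Control against 142 and 160.4 CPM in Uox_KO (log2 change 0.50 ± 0.075, adjusted p = 0.00104) and 95.2 and 95.7 against 162 and 173 CPM in the rich spots (log2 change 0.81 ± 0.068, adjusted p = 4.24e-07), with the Uox_KO sections higher in both. Acsl1, a long-chain acyl-CoA synthetase that activates fatty acids, had 136 and 134 CPM in Control against 149 and 199 CPM in Uox_KO over whole sections. The groups did not overlap but the Uox_KO sections lay far apart (log2 change 0.37 ± 0.13, adjusted p = 0.0388). That call was lost without either Control section or without Uox_KO replicate 2 (log2 0.15 to 0.37). Across the rich spots Acsl1 had 92.7 and 96.3 against 159.7 and 177 CPM, a 1.78-fold rise without overlap (log2 change 0.83 ± 0.072, adjusted p = 5.92e-07).

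Among the 10 genes of peroxisomal β-oxidation 7 fell, 2 rose and 1 was not called over whole sections, while in the rich spots 5 rose, 2 fell and 3 were not called. Of all genes, 32.5% fell and 34.6% rose over whole sections, and 23.1% rose and 21.6% fell in the rich spots. Amacr, the racemase that prepares branched-chain and bile acid intermediates for oxidation, fell most of all 42 genes in both comparisons. It had 469 and 427 CPM in Control against 108 and 105 CPM in Uox_KO over whole sections, a 4.21-fold fall with no overlap (log2 change -2.07 ± 0.076, adjusted p = 3.51e-06). In the rich spots Amacr had 508 and 456 against 183 and 193 CPM, a 2.56-fold fall (log2 change -1.36 ± 0.074, adjusted p = 5.59e-09). Acox3, an acyl-CoA oxidase of branched chains, had 153 and 157 CPM in Control against 76.9 and 74.4 CPM in Uox_KO, a 2.05-fold fall (log2 change -1.04 ± 0.058, adjusted p = 1.50e-05), and 147 and 148 against 119 and 123 CPM in the rich spots (log2 change -0.29 ± 0.065, adjusted p = 0.00243). The Uox_KO sections were the lower ones each time. Acox2, the oxidase of bile acid intermediates, had 64.6 and 59.5 CPM in Control against 51.97 and 37.4 CPM in Uox_KO over whole sections (log2 change -0.47 ± 0.14, adjusted p = 0.0229). The call was lost without either Control section (log2 -0.42 and -0.54). Its rich-spot values, 80.3 and 75.7 against 79.9 and 69.1 CPM, overlapped (log2 change -0.065 ± 0.080, adjusted p = 0.54).

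Ehhadh, the L-bifunctional enzyme that hydrates and dehydrogenates the chain, changed direction between the comparisons. Over whole sections Ehhadh had 386 and 342 CPM in Control against 301 and 292 CPM in Uox_KO, with both Uox_KO sections lower (log2 change -0.30 ± 0.080, adjusted p = 0.0145). This call was lost without Control replicate 1 (log2 -0.21). Within the rich spots it had 476 and 431 against 652 and 619.7 CPM, with both Uox_KO sections higher (log2 change 0.49 ± 0.073, adjusted p = 0.00011). Hsd17b4, the D-bifunctional enzyme used for branched chains, fell over whole sections, with 231 and 216 CPM in Control against 166 and 168 CPM in Uox_KO (log2 change -0.42 ± 0.065, adjusted p = 0.00119). In the Cyp4a14-rich spots it had 226 and 208 against 236 and 229 CPM, separate but not called (log2 change 0.10 ± 0.068, adjusted p = 0.244). Eci2, a peroxisomal enoyl-CoA isomerase, had 134 and 128 CPM in Control against 114 and 107 CPM in Uox_KO (log2 change -0.24 ± 0.064, adjusted p = 0.0129). It was not called without Control replicate 1 or Uox_KO replicate 2 (log2 -0.22 and -0.19) and stood at 0.021 with section totals only. Among the rich spots Eci2 rose, with 133 and 123 against 158 and 139 CPM (log2 change 0.21 ± 0.077, adjusted p = 0.0358). That call was lost without Control replicate 2 or Uox_KO replicate 1 (log2 0.15 and 0.13). Decr2, the peroxisomal dienoyl-CoA reductase, had 30.7 and 29.7 CPM in Control against 30.1 and 31.8 CPM in Uox_KO, with overlap and no call (log2 change 0.037 ± 0.058, adjusted p = 0.595), and 26.7 and 25.2 against 45.4 and 48.7 CPM in the rich spots, where it rose 1.81-fold (log2 change 0.86 ± 0.084, adjusted p = 1.99e-06).

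Acaa1a and Acaa1b encode closely related peroxisomal 3-oxoacyl-CoA thiolases, and Acaa1b is the one known as a PPAR-alpha target. Acaa1b had 450.1 and 458 CPM in Control against 751 and 709.9 CPM in Uox_KO over whole sections, a 1.61-fold rise without overlap (log2 change 0.69 ± 0.072, adjusted p = 0.0002). Across the rich spots it had 508 and 528 against 1596 and 1498 CPM, a 2.99-fold rise (log2 change 1.58 ± 0.074, adjusted p = 1.16e-09). Acaa1a fell over whole sections, with 181 and 195 CPM in Control against 141 and 148 CPM in Uox_KO and no overlap (log2 change -0.38 ± 0.067, adjusted p = 0.00241), and in the rich spots its values, 148 and 158 against 157 and 166 CPM, overlapped (log2 change 0.076 ± 0.069, adjusted p = 0.387). How reads that fit both copies were counted is not given in the sources used here, so the split between them is uncertain. Crot, the peroxisomal carnitine octanoyltransferase that exports shortened chains, had 234 and 224 CPM in Control against 294 and 257 CPM in Uox_KO (log2 change 0.27 ± 0.082, adjusted p = 0.0237). The call was lost without either Control section or Uox_KO replicate 1 (log2 0.17 to 0.30). It had 324 and 301 against 484 and 462 CPM in the rich spots, a rise without overlap (log2 change 0.60 ± 0.069, adjusted p = 1.07e-05).

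The thiolase genes start 184 kb apart on chromosome 9, Acaa1a on the plus and Acaa1b on the minus strand. The 250 bases before each start, from RefSeq on GRCm38.p6, are shown because the copies differed in call, Acaa1a from chr9:119341044-119341293 and Acaa1b from chr9:119157094-119157343. Each is read 5′ to 3′ on the strand of its gene, with CCAAT on either strand in capitals.
Acaa1a: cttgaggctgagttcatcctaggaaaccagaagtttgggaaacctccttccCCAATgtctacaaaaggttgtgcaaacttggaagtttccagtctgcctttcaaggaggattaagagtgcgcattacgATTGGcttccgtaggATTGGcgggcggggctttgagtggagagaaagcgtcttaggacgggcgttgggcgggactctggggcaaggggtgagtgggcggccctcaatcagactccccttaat
Acaa1b: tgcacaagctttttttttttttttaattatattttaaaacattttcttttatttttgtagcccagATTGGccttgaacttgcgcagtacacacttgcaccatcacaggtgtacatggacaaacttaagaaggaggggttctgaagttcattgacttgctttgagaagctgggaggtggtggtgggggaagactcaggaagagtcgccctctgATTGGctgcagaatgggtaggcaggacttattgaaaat

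Cat, the catalase that breaks down hydrogen peroxide, and Pex11a, which drives peroxisome division and is a known PPAR-alpha target, parted over whole sections. Cat had 1259 and 1162 CPM in Control against 812 and 777 CPM in Uox_KO, a 1.52-fold fall without overlap (log2 change -0.61 ± 0.081, adjusted p = 0.000617). In the rich spots its values, 1319 and 1216 against 1302 and 1328 CPM, overlapped and it was not called (log2 change 0.053 ± 0.074, adjusted p = 0.587). Pex11a had 33.1 and 31.9 CPM in Control against 36.6 and 37.3 CPM in Uox_KO over whole sections (log2 change 0.19 ± 0.054, adjusted p = 0.02). The Uox_KO sections were higher. This call was lost without either Control section or Uox_KO replicate 2 (log2 0.15 to 0.21). Within the rich spots Pex11a had 32.1 and 34.2 against 61.3 and 62.9 CPM, a 1.87-fold rise (log2 change 0.91 ± 0.077, adjusted p = 5.00e-07).

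The acyl-CoA thioesterases, which split acyl-CoA into free acid and CoA, and the acyltransferase Acnat2 gave 4 rises and 3 falls over whole sections and 6 rises of 7 in the rich spots. Shares over all genes were 34.6% higher and 32.5% lower in whole sections, and 23.1% higher in the rich spots. Acot1, the cytosolic long-chain thioesterase, had 72.97 and 65.5 CPM in Control against 206 and 178 CPM in Uox_KO, a 2.77-fold rise (log2 change 1.47 ± 0.092, adjusted p = 2.27e-05), and 101 and 82.01 against 336 and 304 CPM in the rich spots, a 3.50-fold rise (log2 change 1.81 ± 0.091, adjusted p = 2.75e-09). Acot2, its mitochondrial relative, had 34.4 and 31.1 CPM in Control against 53.8 and 49.8 CPM in Uox_KO (log2 change 0.66 ± 0.072, adjusted p = 0.000244) and 31.2 and 28.4 against 74.7 and 64.9 CPM in the rich spots (log2 change 1.23 ± 0.088, adjusted p = 9.42e-08). The Uox_KO sections of both genes were the higher ones throughout. Acot3, a peroxisomal long-chain thioesterase, had 14.1 and 15.6 CPM in Control against 20.4 and 18.05 CPM in Uox_KO (log2 change 0.37 ± 0.087, adjusted p = 0.00781). It was not called without Control replicate 1 (log2 0.30). In the Cyp4a14-rich spots Acot3 had 10.6 and 12.6 against 37.4 and 32.7 CPM, a 3.02-fold rise without overlap (log2 change 1.59 ± 0.11, adjusted p = 8.93e-08). Acot4, which acts in peroxisomes on dicarboxylic acids such as succinate, had 54.4 and 50.3 CPM in Control against 42.4 and 41.2 CPM in Uox_KO over whole sections, with the Uox_KO sections lower (log2 change -0.33 ± 0.062, adjusted p = 0.00311). Among the rich spots the order turned, with 54.99 and 53.1 against 75.6 and 67.8 CPM (log2 change 0.41 ± 0.077, adjusted p = 0.000699).

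Acot2, Acot1, Acot4 and Acot3 are neighbours on chromosome 12, with starts within 64.3 kb, and share sequence, so the split of reads between them is uncertain. The 250 bases before the Acot4 start (chr12:84038129-84038378, plus strand) are shown because Acot4 was 1 of 2 members with a match to a loosened direct repeat, next to the start. The form searched first, AGGNCA, any base and AGGNCA, was in none of the members' windows, and any base was then allowed in the first place. Capitals mark the match to this looser form, which lies on the minus strand.
Acot4: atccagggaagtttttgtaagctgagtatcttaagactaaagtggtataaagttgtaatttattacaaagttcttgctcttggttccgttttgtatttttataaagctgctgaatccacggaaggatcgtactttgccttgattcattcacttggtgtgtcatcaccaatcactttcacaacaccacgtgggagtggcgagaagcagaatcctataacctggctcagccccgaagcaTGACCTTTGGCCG

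Acot8, a peroxisomal thioesterase of broad range, had 36.1 and 36.2 CPM in Control against 40.1 and 39.6 CPM in Uox_KO (log2 change 0.14 ± 0.052, adjusted p = 0.0481). That whole-section difference did not overlap, but its call was lost without any 1 of the 4 sections (log2 0.13 to 0.16). Across the rich spots Acot8 rose 1.78-fold, with 33.5 and 31.4 against 58.4 and 56.8 CPM (log2 change 0.83 ± 0.077, adjusted p = 1.25e-06). Acot12, the cytosolic acetyl-CoA thioesterase, had 164 and 153 CPM in Control against 90.1 and 84.03 CPM in Uox_KO, a 1.82-fold fall without overlap (log2 change -0.86 ± 0.068, adjusted p = 5.69e-05). It had 168 and 160.0 against 155 and 156 CPM in the rich spots and was not called (log2 change -0.078 ± 0.066, adjusted p = 0.354). Acnat2, a peroxisomal acyltransferase that conjugates fatty acids to taurine, had 39.6 and 36.2 CPM in Control against 29.8 and 31.9 CPM in Uox_KO, with the Uox_KO sections lower (log2 change -0.30 ± 0.068, adjusted p = 0.00765). That call was lost without Control replicate 1 (log2 -0.24). In the rich spots Acnat2 had 25.7 and 25.8 against 51.2 and 52.4 CPM, a 2.01-fold rise without overlap (log2 change 1.01 ± 0.079, adjusted p = 2.42e-07).

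The receptor gene Ppara was counted thinly, with 194 and 210 UMIs in the Control sections against 118 and 164 in the Uox_KO sections, over whole sections. Its level was 2.28 and 2.12 CPM in Control against 1.96 and 2.66 CPM in Uox_KO, with overlap and no call (log2 change 0.072 ± 0.18, adjusted p = 0.737). Within the rich spots 24 and 20 UMIs in Control against 24 and 28 UMIs in Uox_KO gave 1.48 and 1.13 against 2.12 and 2.56 CPM (log2 change 0.84 ± 0.31, adjusted p = 0.0379), and this call was lost with DESeq2 and without Control replicate 2 or Uox_KO replicate 2 (log2 0.65 and 0.70). Ppargc1a, a coactivator of mitochondrial biogenesis and of PPAR-alpha, fell, with 27.98 and 29.2 CPM in Control against 15.6 and 18.05 CPM in Uox_KO over whole sections (log2 change -0.77 ± 0.081, adjusted p = 0.000217). In the Cyp4a14-rich spots Ppargc1a had 20.3 and 23.8 against 14.98 and 16.3 CPM (log2 change -0.50 ± 0.12, adjusted p = 0.00315), and the Uox_KO sections were lower in both. Pdk4, the kinase that shuts off pyruvate dehydrogenase when fatty acids are burned, rose most of the 42 genes over whole sections. It had 8.46 and 8.73 CPM in Control against 58.7 and 82.3 CPM in Uox_KO, an 8.20-fold rise (log2 change 3.04 ± 0.16, adjusted p = 1.17e-05), and 10.7 and 10.3 against 62.3 and 72.8 CPM in the rich spots (log2 change 2.69 ± 0.10, adjusted p = 1.14e-10). Vnn1, a pantetheinase and a known PPAR-alpha target, had 109 and 103 CPM in Control against 246 and 237 CPM in Uox_KO, a 2.29-fold rise (log2 change 1.19 ± 0.064, adjusted p = 1.26e-05). Among the rich spots Vnn1 had 121 and 114 against 476 and 459.9 CPM, a 3.99-fold rise without overlap (log2 change 1.99 ± 0.070, adjusted p = 5.43e-11).

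**Figure D2:**
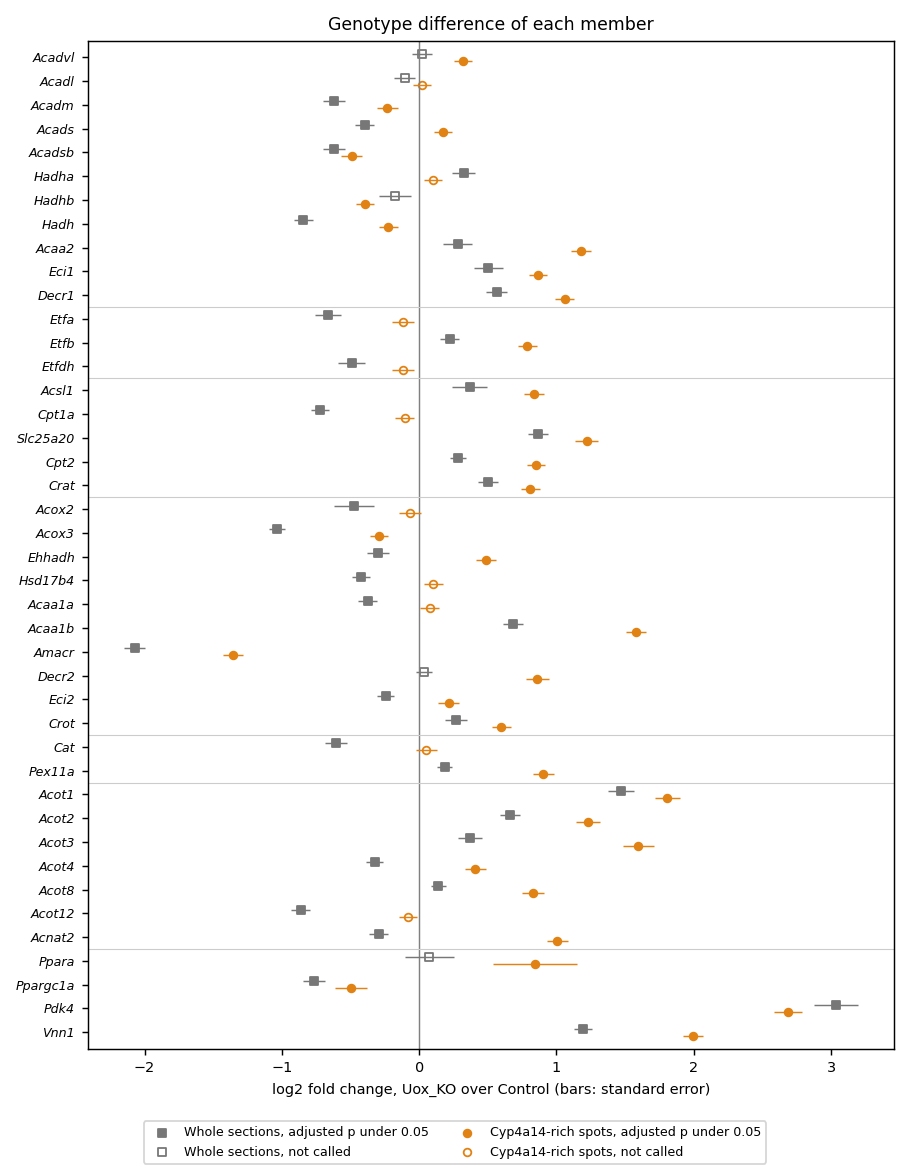
log2 fold change of Uox_KO over Control for each of the 42 genes, over whole sections (grey squares) and in the Cyp4a14-rich spots (orange circles), with bars of 1 standard error, n = 2 sections per genotype, and open symbols where the adjusted p was 0.05 or more. Most orange points lie to the right of the grey ones, Pdk4 runs from 2.69 to 3.04, and Amacr lies lowest at -2.07 and -1.36.

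By place in the cell, the mitochondrial and peroxisomal genes had medians of opposite sign over whole sections and positive medians in the rich spots. Over all genes 34.6% rose and 32.5% fell in whole sections, and 23.1% rose and 21.6% fell in the rich spots. Of the 20 mitochondrial members 10 rose and 7 fell over whole sections (median log2 fold change 0.12), and 11 rose and 4 fell in the rich spots (median 0.25). Of the 16 peroxisomal members 5 rose and 10 fell over whole sections (median -0.30), and 10 rose and 2 fell in the rich spots (median 0.45). Among the other 6, which are cytosolic, of several membranes or nuclear, 3 rose and 2 fell over whole sections and 4 rose and 1 fell in the rich spots. The summed level of the mitochondrial members was 4853 and 4689.6 CPM in Control against 4217 and 4634 CPM in Uox_KO over whole sections and 4692 and 4452 CPM in Control against 5719 and 5719.8 CPM in Uox_KO in the rich spots. For the peroxisomal members the sums were 3770.0 and 3568 CPM in Control against 3014 and 2876 CPM in Uox_KO over whole sections and 4053 and 3829 CPM in Control against 5297 and 5148 CPM in Uox_KO in the rich spots. In both sums the Uox_KO sections were the lower ones over whole sections and the higher ones in the rich spots, with no overlap. The median and the sum of the mitochondrial members thus differ in sign over whole sections, and without fat spots their median was -0.17, with 7 rises and 10 falls, the same sign as the peroxisomal one. Adipocyte markers, given above, were higher in both Uox_KO sections. Counts, medians and sums of these lists are a description and carry no test.

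The 16 members taken as known PPAR-alpha targets cut across both places. They comprise Acadl, Acadm, Hadha, Hadhb, Acsl1, Cpt1a, Slc25a20, Cpt2, Ehhadh, Acaa1b, Pex11a, Acot1, Acot2, Acot3, Pdk4 and Vnn1. Over whole sections 11 rose and 3 fell (median 0.35), beside 34.6% and 32.5% of all genes, the falls being Acadm, Cpt1a and Ehhadh. This list was chosen with earlier results of these data known, so its counts carry no test. Without fat spots 9 rose and 6 fell. Across the rich spots 11 rose and 2 fell (median 0.88), beside 23.1% and 21.6% of all genes, the falls being Acadm and Hadhb. Those spots were chosen by Cyp4a14, itself a PPAR-alpha target, so counts of such targets there are not independent of the choice. Their summed level was 2955 and 2828 CPM in Control against 3188 and 3301 CPM in Uox_KO over whole sections and 3175 and 2995 CPM in Control against 5247 and 5071 CPM in Uox_KO in the rich spots.

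Outside the Cyp4a14-rich spots the balance of the 42 genes was the reverse of that within them. In the other 85% of spots 10 genes rose and 20 fell, beside 68.4% of 16238 genes called (35.2% higher and 33.2% lower). The split was 19 higher and 15 lower with section totals only (55.9% of calls higher, against 33.3%), where the median of all genes was 0.35. Of the 16 peroxisomal members 1, Acaa1b, rose there and 11 fell, and of the 20 mitochondrial members 7 rose and 7 fell. Without the fat spots described below, 8 of the 42 genes rose there and 25 fell, beside 5619 and 5363 of 16097 genes. Of the mitochondrial members, Hadha, Eci1 and Crat were then not called (log2 -0.13, 0.016 and 0.024). Acadvl, Acadl, Hadhb and Acaa2 were called lower (log2 -0.39, -0.44, -0.88 and -0.40). With fat spots kept, Cat had 1242 and 1153 CPM in Control against 700.0 and 662 CPM in Uox_KO in the other 85% of spots and fell (log2 change -0.81 ± 0.088, adjusted p = 0.000197). Ehhadh had 364 and 323 CPM in Control against 219.9 and 222 CPM in Uox_KO there (log2 change -0.64 ± 0.082, adjusted p = 0.000454) and Acnat2 42.8 and 38.6 CPM in Control against 24.96 and 27.7 CPM in Uox_KO (log2 change -0.63 ± 0.080, adjusted p = 0.000429), without overlap. Acads, Ehhadh, Decr2, Eci2, Acot4 and Acnat2 fell in the other spots and rose in the rich ones. Of these calls, the rich-spot rises of Acads and Eci2 were lost in 13 and 5 alternative settings. The fall of Decr2 in the other spots was lost in 10, and with section totals only it stood at log2 0.16. Rises in both kinds of spots were found for 9 genes (Eci1, Decr1, Slc25a20, Crat, Acaa1b, Acot1, Acot2, Pdk4 and Vnn1) and falls in both for 6 (Acadm, Acadsb, Hadh, Acox3, Amacr and Ppargc1a). Of the 9, Eci1 and Crat were not called in the other spots once fat spots were left out (log2 0.016 and 0.024). Without Control replicate 1 or 2, the calls of Eci1 (log2 0.44 and 0.38), Acaa1b (log2 0.30 and 0.33), Hadha (log2 0.36 and 0.37), Acox2 (log2 -0.56 and -0.68) and Decr2 (log2 -0.17 and -0.21) in the other spots were lost, and that of Decr2 also without Uox_KO replicate 1 (-0.13). In the other spots the S1 and S2 marker sum was 11771 and 11209 CPM in Control against 3543 and 4247 CPM in Uox_KO, and the part of that difference in these falls was not tested.

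Whether the genotype difference itself differed between rich and other spots was tested in 1 fit of the 8 sums, with the mouse as a block. It was more positive in the rich spots for 37 of the 42 genes and more negative for 3, beside 44.7% of 15427 genes called (23.2% higher and 21.5% lower). All 16 peroxisomal members were among the 37, together with 15 of the 20 mitochondrial members. With section totals only, where the median of all genes was -0.47, 23 were more positive and 5 more negative (82.1% of calls higher, against 92.5%). With spots chosen by proximal tubule markers, an alternative added after seeing the data, 38 were more positive and 0 more negative. Over all 15394 genes the counts were then 3314 and 2958. The widest gaps were those of Acnat2 (log2 1.60 ± 0.085, adjusted p = 9.85e-14) and Acot3 (1.55 ± 0.10, adjusted p = 6.78e-12), followed by Acaa1b (1.22 ± 0.052, adjusted p = 2.07e-15) and Ehhadh (1.09 ± 0.054, adjusted p = 3.01e-14). Amacr and Acox3, which fell in both kinds of spots, fell less in the rich spots, with gaps of 0.92 and 0.93. Pdk4, Hadha and Hadhb had the opposite sign (-0.45 ± 0.12, adjusted p = 0.00251 for Pdk4). Shares in fat spots, given below, were large for these 3 genes and also for Acsl1 and Acaa2 (gaps of 0.53 and 1.07). With fat spots left out, 41 of the 42 genes were more positive in the rich spots, these 3 included, and 0 more negative. Over all 15278 genes the counts were then 3520 and 3213. The cause of these gaps was not tested. The calls of Hadhb without Control replicate 1 or Uox_KO replicate 2 (-0.24 and -0.13), of Ppara without Control replicate 2 or Uox_KO replicate 1 (0.72 and 0.80) and of Ppargc1a without either replicate 1 (0.20 and 0.24) were lost.

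Within each genotype the rich spots were also compared with the other spots of the same sections. In Uox_KO 38 of the 42 genes were higher in the rich spots and 2 lower, Hadha and Hadhb, beside 63.4% of 15427 genes called (28.4% higher and 35% lower). In Control 27 were higher and 3 lower (Acaa2, Acsl1 and Acnat2), beside 13.7% called (7.38% higher and 6.3% lower), although these spots were chosen there by 2 or 3 UMIs of Cyp4a14 at the median. With section totals only the counts were 31 and 6 in Uox_KO and 23 and 5 in Control, where the medians of all genes were -0.58 and -0.077. The highest log2 differences in Uox_KO were 1.78 for Ehhadh, 1.75 for Acaa1b and 1.54 for Vnn1, and in Control 0.86 for Crot, 0.79 for Acot1 and 0.70 for Acox2. Of the 12 S1 and S2 markers 9 were higher and 1 lower in the rich spots of Uox_KO, and 3 higher and 8 lower in those of Control, where 6 of 7 thick ascending limb markers were higher. The part of these markers in the counts was not tested. Without Control replicate 1, 16 genes were called higher in Control, against 27. With spots chosen after thinning each spot to 5000 UMIs, 16 were higher and 1 lower. In Uox_KO that choice gave 35 higher and 2 lower, beside 4150 and 5025 of 15411 genes. Rich spots of Control had a median of 41990 and 35669.5 UMIs, against 36416 and 31550 UMIs in the other spots. The gap was wider in Uox_KO, with 31139 and 31040.5 UMIs against 14884 and 17669.5 UMIs. The part of depth in these counts was not tested further. Acnat2 was lower in the Control rich spots (log2 -0.37) and higher in the Uox_KO ones (1.23), as was Acaa2 (-0.39 and 0.68).

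Ranking all spots of a section by Cyp4a14 gave a gradient with 5 steps, the top 5%, 5 to 15%, 15 to 30%, 30 to 50% and the lower 50 to 100% of spots. The summed peroxisomal members fell along it in Uox_KO replicate 1 from 6956 to 6022, 5171, 4072 and 2144 CPM of UMIs outside the mitochondrial genome, and in replicate 2 from 6622 to 2012. In Control the same sum ran from 5094 to 3546 and from 4891 to 3462. Both Uox_KO sections were above both Control sections in the first 4 steps and below them in the last. The mitochondrial members ran from 7021 to 4746 in Uox_KO replicate 1, and in replicate 2 from 7100.0 down to 5472 at 30 to 50% and back to 5834 in the last step. In Control they ran from 5687 to 4882 and from 5460.1 to 4855. The S1 and S2 markers fell along the ranking in Uox_KO, from 10082 to 2695 and from 11179 to 3131, and rose in Control, from 9812 to 12269.9 and from 9894 to 11785. These sums are descriptions of single sections and carry no test.

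**Figure D3:**
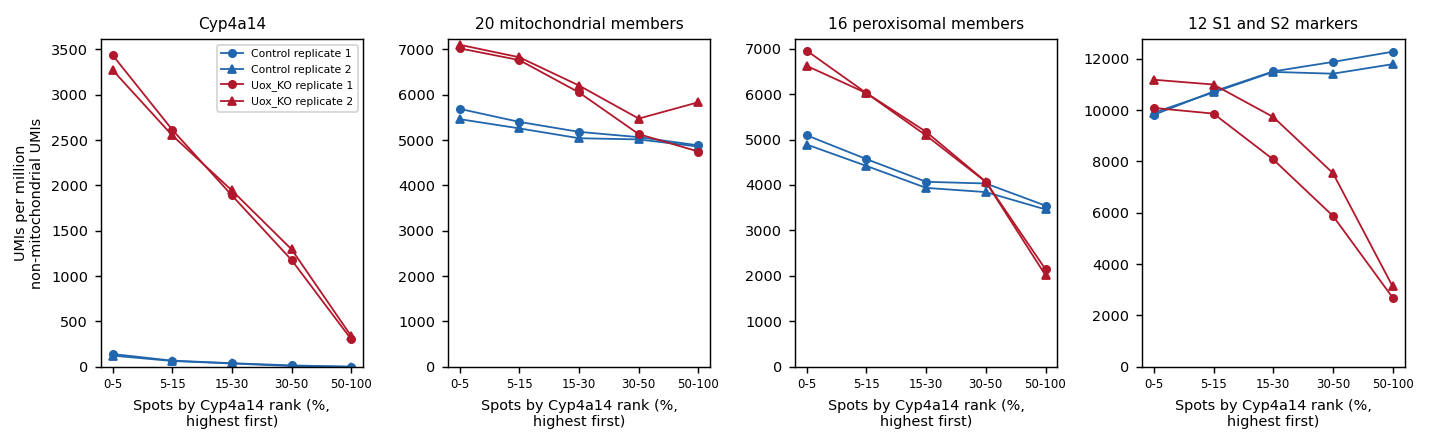
Summed level of Cyp4a14, of the 20 mitochondrial members, of the 16 peroxisomal members and of 12 S1 and S2 markers (CPM of UMIs outside the mitochondrial genome) across spots ranked by Cyp4a14, highest first, with 1 line per section, Control blue and Uox_KO red. The peroxisomal sum of the Uox_KO sections drops from 6956 and 6622 to 2144 and 2012, crossing the Control lines, and the mitochondrial sum of Uox_KO replicate 2 turns up again in the last step.

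Spots rich in fat cell markers were frequent on the Uox_KO sections. Spots with at least 5 UMIs of Adipoq, Plin1, Cidec, Ucp1 and Cidea together per 10000 were counted 2 and 17 times in Control against 254 and 317 times in Uox_KO. Of these, 3 and 9 Uox_KO spots were among the rich spots. These fat spots held 6.38% and 10.8% of all UMIs of the Uox_KO sections. They held far larger shares of the UMIs of several mitochondrial genes, 33.98% and 45.8% for Hadhb, 31.5% and 43.9% for Pdk4, 23.8% and 38.2% for Hadha and 25.1% and 32.9% for Acaa2, and also 33.5% and 45.7% for Acsl1. Smaller shares than over all genes were found for most peroxisomal members, such as 1.20% and 4.40% for Ehhadh, 1.51% and 4.56% for Acaa1b and 0.407% and 2.61% for Acot3. Cpt1a, the liver-type gene of its enzyme, stood with the latter at 1.46% and 3.90%.

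Leaving out the fat spots of all sections turned the whole-section difference of 4 genes. Acadvl moved from 0.019 to -0.25, Hadha from 0.32 to -0.090, Acaa2 from 0.28 to -0.084 and Acsl1 from 0.37 to -0.25 on the log2 scale. Of these, Acadvl and Acsl1 were then called lower, as were Hadhb and Acadl (-0.79 and -0.34), which had not been called. Pdk4 moved from 3.04 to 2.51 and remained called. Over the 42 genes 14 rose and 23 fell without these spots, with 7 and 10 of the 20 mitochondrial members (median -0.17), 5 and 10 of the 16 peroxisomal members as before, and 9 and 6 of the 16 PPAR-alpha targets. In the rich spots the counts were 24 higher and 6 lower, and the mitochondrial and peroxisomal members gave 10 and 3 and 10 and 2. The genotype difference was then more positive in the rich than in the other spots for 41 of the 42 genes and more negative for none, Hadha, Hadhb and Pdk4 included at 0.21, 0.48 and 0.33. Over all genes without fat spots, 5541 of 16245 rose and 5273 fell in whole sections, and 2974 of 13076 rose and 2728 fell in the rich spots. For the difference between spots, 3520 of all 15278 genes were more positive and 3213 more negative.

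**Figure D4:**
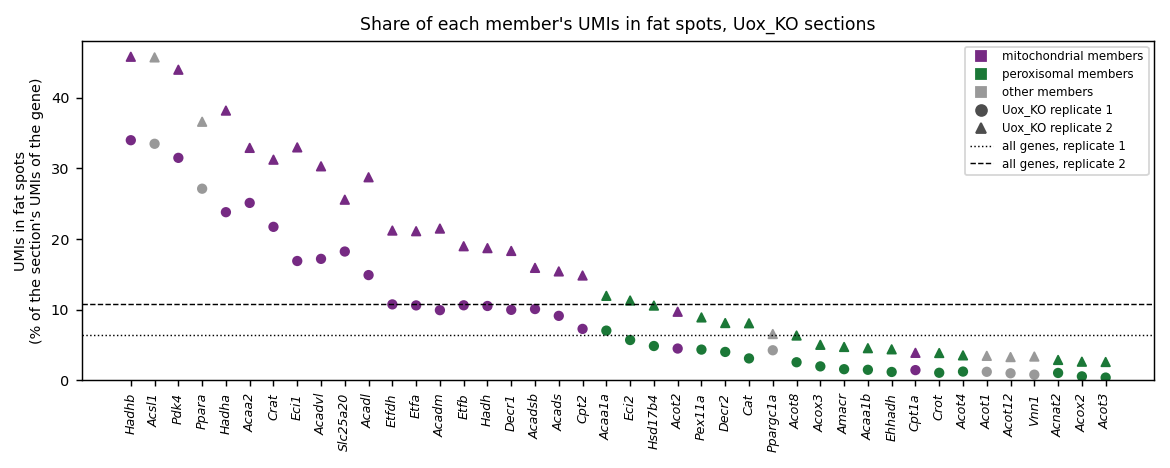
Share of each gene's UMIs, in percent of the section's UMIs of that gene, that lay in fat spots of the 2 Uox_KO sections, genes ordered by their mean share, mitochondrial members purple, peroxisomal green and others grey. Horizontal lines give the share over all genes, 6.38% and 10.8%, and mitochondrial genes such as Hadhb lie above them while nearly all peroxisomal genes lie near or below.

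The other genes of the pathways, from lists that hold none of the 42, did not follow 1 direction. Their counts, here and in the next paragraph, stand beside 34.6% of all genes called higher and 32.5% lower over whole sections. In the rich spots these shares were 23.1% and 21.6%. Of 14 further PPAR-alpha targets tested over whole sections 10 rose and 3 fell, and of 12 tested in the rich spots 9 rose and 1 fell. Both counts of rises include Cyp4a14, and its call in the rich spots supports nothing, since its values chose them. The counts of the other PPAR-alpha targets there are not independent of that choice either. Cyp4a14 had 23.9 and 19.7 CPM in Control against 991 and 974 CPM in Uox_KO over whole sections (log2 change 5.49 ± 0.12, adjusted p = 1.12e-06). Plin2, a coat protein of lipid droplets, had 87.9 and 85.02 CPM in Control against 225 and 239 CPM in Uox_KO (log2 change 1.42 ± 0.065, adjusted p = 7.02e-06). The groups of both genes were far apart. Of 33 further fatty acid oxidation genes 8 rose and 22 fell over whole sections, and of 32 in the rich spots 9 rose and 17 fell. Acsm2, a medium-chain acyl-CoA synthetase of the proximal tubule, had 4099 and 3859 CPM in Control against 999 and 1038 CPM in Uox_KO (log2 change -1.97 ± 0.090, adjusted p = 7.09e-06), Acsm5, of the same family, had 66.3 and 64.3 CPM in Control against 18.8 and 16.8 CPM in Uox_KO (log2 change -1.87 ± 0.070, adjusted p = 3.73e-06), and Acad10, an acyl-CoA dehydrogenase relative, had 70.9 and 70.7 CPM in Control against 32.1 and 31.5 CPM in Uox_KO (log2 change -1.16 ± 0.053, adjusted p = 7.42e-06).

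Of 36 further peroxisome genes 4 rose and 26 fell over whole sections, and of 35 in the rich spots 8 rose and 10 fell. Agps, an enzyme of ether lipid synthesis, had 268 and 241 CPM in Control against 98.5 and 95.7 CPM in Uox_KO (log2 change -1.39 ± 0.074, adjusted p = 1.22e-05). Phyh, which starts the α-oxidation of phytanic acid, had 806 and 767 CPM in Control against 277 and 311 CPM in Uox_KO (log2 change -1.42 ± 0.084, adjusted p = 1.84e-05), and Pxmp2, a channel of the peroxisomal membrane, 98.6 and 99.1 CPM in Control against 48.6 and 47.3 CPM in Uox_KO (log2 change -1.04 ± 0.056, adjusted p = 1.23e-05). Both Uox_KO sections were lower for each. Among 14 regulators of fatty acid oxidation 2 rose and 7 fell, and 3 rose and 3 fell in the rich spots, shares near the 67.1% and 44.7% of all genes called. Klf15, a transcription factor of fuel use, had 112 and 108 CPM in Control against 34.8 and 35.3 CPM in Uox_KO (log2 change -1.65 ± 0.058, adjusted p = 3.03e-06), Sirt3, a mitochondrial deacetylase, 100.2 and 103 CPM in Control against 48.8 and 48.9 CPM in Uox_KO (log2 change -1.06 ± 0.056, adjusted p = 1.18e-05), and Pparg, the receptor of fat cells, 0.353 and 0.485 CPM in Control against 4.86 and 8.10 CPM in Uox_KO (log2 change 3.93 ± 0.31, adjusted p = 5.64e-05). Within the rich spots Pparg had 0.494 and 0.959 CPM in Control against 0.793 and 0.733 CPM in Uox_KO, with overlap. Fatty acid synthesis gave 9 rises and 1 fall of 12 over whole sections and 9 and 2 in the rich spots. Scd1, the stearoyl-CoA desaturase, had 28.7 and 47.3 CPM in Control against 1766 and 1719 CPM in Uox_KO (log2 change 5.52 ± 0.25, adjusted p = 6.91e-06), Acaca, the first enzyme of synthesis, 10.6 and 11.5 CPM in Control against 98.04 and 131 CPM in Uox_KO (log2 change 3.37 ± 0.14, adjusted p = 5.73e-06), and Elovl6, an elongase, 7.05 and 7.21 CPM in Control against 28.3 and 36.5 CPM in Uox_KO (log2 change 2.18 ± 0.12, adjusted p = 1.52e-05). Their log2 changes in the rich spots were 2.42, 1.32 and 1.40. Adipocyte markers were higher in Uox_KO over whole sections, and their part in these values was not tested.

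RefSeq promoter windows, from 250 bases before to 50 after the start on GRCm38.p6, were on hand for 36 of the 42 genes, not for Amacr, Acaa2, Vnn1, Decr1, Hsd17b4 and Crat. Motifs were searched on both strands. The direct repeat of AGGNCA with 1 base between its copies, the general form bound by PPAR-alpha with its partner, was found in 0 of the 36 and in 0.451% of the 27025 genes with a window. A looser form, with any base in the first place, contains the former and was chosen after that search. It was found in Acox2 and Acot4, 5.56% of the 36 against 0.929% of all. The single site AGGTCA was found in 7 of 36 (19.4%, against 18.1% of all), and CCAAT in 20 of 36 (55.6%, against 41.1%). A match is a description of these letters, and the windows do not cover distant sites.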

How the data were processed

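The deposited tables hold raw UMI counts of each gene in each spot. The authors used Space Ranger 1.3.1 and mm10, per the submitters' processing notes. Spots of at least 500 UMIs were kept (1 spot was left out). Counts were summed per section over all spots, over the 15% richest in Cyp4a14 and over the other 85%. Sums were filtered with filterByExpr, scaled with TMM and compared between genotypes by the quasi-likelihood test of edgeR 4.0.16 in R 4.3.3, without covariates, with Benjamini-Hochberg adjustment over all genes. The difference between spot classes was tested in 1 fit with the mouse as a block. Each section, not each spot, was a replicate. The tests were tested on simulated data. Alternatives were DESeq2 1.42.0, RLE factors, section totals only, no filter, each section left out, a replicate block, no mitochondrially encoded genes, thinned counts, a minimum of 2000 UMIs, no fat spots, and other choices of rich spots. The members and gene lists were chosen with earlier results of these data known. All 42 members were named with values in whole sections, and in the rich spots where their call, direction or difference between spots differed, together with the 3 genes of smallest p in each pathway list. One gene that this rule names is not reported here. Replicate numbers are those of the labels, not of the file names. An exact permutation test of 2 against 2 sections cannot go below p = 0.333, so none was used.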

Additional observations from a re-analysis of the deposited data

Results flagged for a closer look

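The genotype difference of 40 of the 42 genes differed between the Cyp4a14-rich and the other spots in edgeR's test of that difference, beside 44.7% of all genes tested. Values are log2 differences, rich minus other, of the Uox_KO over Control change. In the mitochondrial spiral they were 0.34 for Acadvl, 0.48 for Acadm, 0.69 for Acads, 0.75 for Hadh, 1.07 for Acaa2, 0.43 for Eci1 and 0.60 for Decr1, and negative at -0.29 for Hadha and -0.28 for Hadhb. For electron transfer they were 0.66 for Etfa, 0.68 for Etfb and 0.45 for Etfdh. Activation and the carnitine shuttle gave 0.53 for Acsl1, 0.73 for Cpt1a, 0.41 for Slc25a20, 0.71 for Cpt2 and 0.34 for Crat. Peroxisomal β-oxidation gave 0.53 for Acox2, 0.93 for Acox3, 1.09 for Ehhadh, 0.63 for Hsd17b4, 0.51 for Acaa1a, 1.22 for Acaa1b, 0.92 for Amacr, 1.01 for Decr2, 0.54 for Eci2 and 0.42 for Crot. Catalase and division gave 0.84 for Cat and 0.91 for Pex11a. The thioesterases and the acyltransferase gave 0.43 for Acot1, 0.68 for Acot2, 1.55 for Acot3, 0.94 for Acot4, 0.84 for Acot8, 1.01 for Acot12 and 1.60 for Acnat2. Among regulators and sensors the values were 0.88 for Ppara, 0.29 for Ppargc1a, -0.45 for Pdk4 and 1.07 for Vnn1. The S1 and S2 markers moved the same way, 11 of 12 more positive in the rich spots, and their part in these values was not tested. With 2 sections per genotype, no test of a single section far from its group applied.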

How the results depend on the processing

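Over whole sections 10 rises (Eci1, Decr1, Slc25a20, Cpt2, Crat, Acaa1b, Acot1, Acot2, Pdk4 and Vnn1) and 11 falls kept their call in all settings run, and in the rich spots 22 rises and 4 falls did. Of all member values under alternatives, 494 of 546 kept direction and call in whole sections, 661 of 713 in the rich spots, 659 of 714 in the other spots and 542 of 588 for the difference between them. With section totals only, Eci2 stood at 0.021 in whole sections, Acadvl, Decr2, Pex11a and Acot8 at 0.29, 0.16, 0.30 and 0.30 in the other spots, and Acadvl, Acadl, Acadsb, Crat and Ppargc1a at -0.074, -0.28, -0.29, -0.068 and -0.13 in the difference between spots. Members lower were then 11 in whole sections and 11 in the rich spots, members higher in the other spots 19, members more positive or negative 23 and 5, and members lower in the rich spots 6 within Uox_KO and 5 within Control. Without fat spots, Acadvl, Hadha, Acaa2 and Acsl1 were at -0.25, -0.090, -0.084 and -0.25 in whole sections, Hadha, Acaa2 and Acsl1 at -0.13, -0.40 and -0.50 in the other spots, and Hadha, Hadhb and Pdk4 at 0.21, 0.48 and 0.33 in the difference, with 0 members more negative and 0 lower within Uox_KO. In that setting 8 members rose and 25 fell in the other spots, where Eci1 and Crat were at 0.016 and 0.024 and not called. With spots chosen by proximal tubule markers, an alternative added after seeing the data, Acadm, Etfdh, Acox2, Acaa1a, Acot12 and Ppara in the rich spots were at 0.14, 0.29, 0.29, -0.17, 0.36 and -0.24, the differences of Acsl1, Ppara and Pdk4 at -0.020, -0.43 and 0.94, 0 members were more negative, and within Control 7 were higher and 18 lower. In those rich spots 31 members rose and 5 fell, against 25 and 7 with Cyp4a14, beside 3142 and 2842 of 12739 genes. The difference was more positive for 38 members, against 37. With 30% of spots, Acaa1b and Acot3 were at -0.11 and -0.43 in the other spots. With 5% of spots, 1 member was lower within Uox_KO. Genes called in the rich spots were 3514 with DESeq2 and 3661 with 5% of spots, against 5865. With spots chosen after thinning, 17 members were called within Control, 16 higher and 1 lower. Leaving out 1 section gave 10 to 16 members higher in whole sections, 1 to 2 lower in the rich spots within Uox_KO, and within Control 19 to 34 called, 16 to 29 higher and 3 to 5 lower. The replicate block left 17 higher and 19 lower in whole sections, 24 and 7 in the rich spots and 10 and 19 in the other spots. Deviations of same-numbered sections from their group means correlated at 0.0899 over genes. With 2 sections per genotype this value is the same for both numbers by construction. It cannot show whether same-numbered sections shared a slide or run, which the labels do not give. The cause of these changes was not tested beyond what each setting leaves out. Ppara had few UMIs in all 4 sections, which limits its precision.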
